A study of Homo sapiens with 2 samples.

Results

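The relative mRNA levels of 10 genes of G protein signaling were examined in SAS cells, a squamous carcinoma line of the tongue, with and without depletion of the histone demethylase KDM4C. They were 5 regulators of G protein signaling (RGS2, RGS3, RGS4, RGS10 and RGS20), the small GTPase gene GEM, and 4 receptors for sphingosine-1-phosphate, or S1P (S1PR1, S1PR2, S1PR3 and S1PR5), out of 58884 genes in the count table. Their rows were picked by gene symbol, and the picking was done with their ratios between these same libraries known: GEM, RGS4 and S1PR1 had already stood among the highest genes. The values below are therefore a description, with no test. The shKDM4C cells carried a lentiviral hairpin against KDM4C and are labelled as a KDM4C knockdown, while LKO cells received pLKO.1 as the control and are labelled as wild type. Both were puromycin-selected populations grown in DMEM with fetal bovine serum and collected after overnight culture, and 1 library was sequenced per condition. Which KDM4C hairpin the sequenced cells carried is not given in the sources used here. With 1 library each, the effects of KDM4C loss, of the hairpin and of the individual culture cannot be told apart.

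S1P is a signaling lipid that is made inside cells by sphingosine kinases and acts from outside through a family of G protein-coupled receptors. S1PR1 couples to Gi proteins, S1PR2 and S1PR3 couple also to Gq and to G12/13 proteins, and S1PR5 couples to Gi and G12/13. An activated receptor loads the G alpha subunit with GTP, and RGS proteins end the signal by speeding the hydrolysis of that GTP. RGS2 acts mainly on Gq, RGS3 and RGS4 on both Gi and Gq, RGS10 on Gi-type subunits, and RGS20 mainly on the Gi relative Gz. GEM belongs to the RGK family of small GTPases, which bind the beta subunits of voltage-gated calcium channels and lower channel activity.

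RefSeq promoter windows, of 250 bases before to 50 after a transcript start in GRCh38.p14, were matched for 8 of the 10 genes, each placed on the start of the Ensembl canonical transcript. The windows of RGS4 and S1PR1, with their large ratios, of RGS2, and of S1PR2, which was lower in shKDM4C cells, are printed 5′ to 3′ on the strand of the gene. Capitals mark matches, on either strand, to any of 8 words searched: the cyclic AMP response element TGACGTCA, its core word TGACG, the AP-1 word TGANTCA, an NF-kB word of GGGA and CC set 4 bases apart, the TEAD word GGAATG, the E-box CACGTG, the CArG box and the TATA word TATAAA. The core word lies inside the full element, so a full element also counts as core words.
RGS4, chr1:163069111-163069410, plus strand: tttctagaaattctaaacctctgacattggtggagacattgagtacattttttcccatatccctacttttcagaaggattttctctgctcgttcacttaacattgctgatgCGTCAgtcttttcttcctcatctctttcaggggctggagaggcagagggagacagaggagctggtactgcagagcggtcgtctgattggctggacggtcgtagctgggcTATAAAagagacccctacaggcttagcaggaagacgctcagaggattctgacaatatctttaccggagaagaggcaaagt
S1PR1, chr1:101236769-101237068, plus strand: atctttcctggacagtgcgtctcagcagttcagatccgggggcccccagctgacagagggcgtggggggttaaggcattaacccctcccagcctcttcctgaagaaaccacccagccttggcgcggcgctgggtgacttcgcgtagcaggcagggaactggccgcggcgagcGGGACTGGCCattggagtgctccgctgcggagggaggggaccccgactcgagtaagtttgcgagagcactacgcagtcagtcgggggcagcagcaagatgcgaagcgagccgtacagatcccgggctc
RGS2, chr1:192808789-192809088, plus strand: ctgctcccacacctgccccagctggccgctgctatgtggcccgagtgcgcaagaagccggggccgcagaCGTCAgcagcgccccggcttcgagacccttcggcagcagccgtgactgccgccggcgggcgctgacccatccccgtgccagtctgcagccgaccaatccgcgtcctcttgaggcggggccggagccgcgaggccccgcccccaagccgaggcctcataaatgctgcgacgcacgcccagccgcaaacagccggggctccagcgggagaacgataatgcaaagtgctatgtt
S1PR2, chr19:10231282-10231581, minus strand: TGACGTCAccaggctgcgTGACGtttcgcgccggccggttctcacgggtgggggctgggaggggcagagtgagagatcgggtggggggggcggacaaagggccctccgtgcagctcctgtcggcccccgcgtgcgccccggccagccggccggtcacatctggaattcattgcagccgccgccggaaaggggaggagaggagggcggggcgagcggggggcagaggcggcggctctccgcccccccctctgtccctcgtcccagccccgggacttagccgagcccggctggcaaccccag

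The core word TGACG was in 3 of the 8 matched windows, those of RGS4, RGS2 and S1PR2, and is found in 24.6% of all windows. The windows of S1PR1, S1PR3, S1PR5, RGS3 and RGS10 held none. The RGS4 window held TATAAA with its first base at -30 from the start, a word found in 11.5% of all 35116 RefSeq windows, and a core word at -139. None of the other 7 matched genes had TATAAA in its window. The RGS2 window held 1 core word, at -181, and the S1PR1 window held 1 NF-kB word, at -78. The NF-kB word is found in 25.6% of all windows. The S1PR2 window began with a full cyclic AMP response element at -250, which 1.85% of windows hold, followed by a further core word at -232. S1PR5 held 1 NF-kB word at -236, and RGS3, RGS10 and S1PR3 held no match. RGS4 also stood apart in base composition, with 8 CpG dinucleotides and 47% G and C, while the other 7 windows held 23 to 34 CpG, against a median of 14 over all windows. A match is a run of letters and was not tested as a binding site.

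The count table held 50627096 counts for shKDM4C and 57626616 for LKO. Counts were scaled with the TMM method over the 18078 genes that reached a summed count of 20, and all 10 genes passed this limit, from 116 counts for S1PR2 to 5945 for RGS10. The targeted gene KDM4C had 242 counts in shKDM4C and 1047 in LKO, so that its level was 27.8% of that in LKO cells (95% counting interval 24.0 to 31.9%). A gene was called higher or lower when it differed at least 1.5-fold and its exact 95% counting interval left out no change. These intervals express the error of counting alone: copies made by PCR are not separate molecules, and the spread between cultures was not measured. Of the 10 genes, 5 were called higher (GEM, RGS4, S1PR1, RGS2 and S1PR3), 1 lower (S1PR2) and 4 neither (RGS10, RGS3, S1PR5 and RGS20). Among all tested genes, 13.0% were called higher and 15.7% lower, and since the genes were picked with these ratios known, nothing is read from the difference. Both shares also stand beside the counts of called list genes and markers given below. At 2-fold, 4 of the 10 were called higher and 1 lower, beside 7.77% and 7.46% of all tested genes. The median log2 ratio of the 10 genes was 0.66, against -0.0094 over all tested genes.

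**Figure D1:**
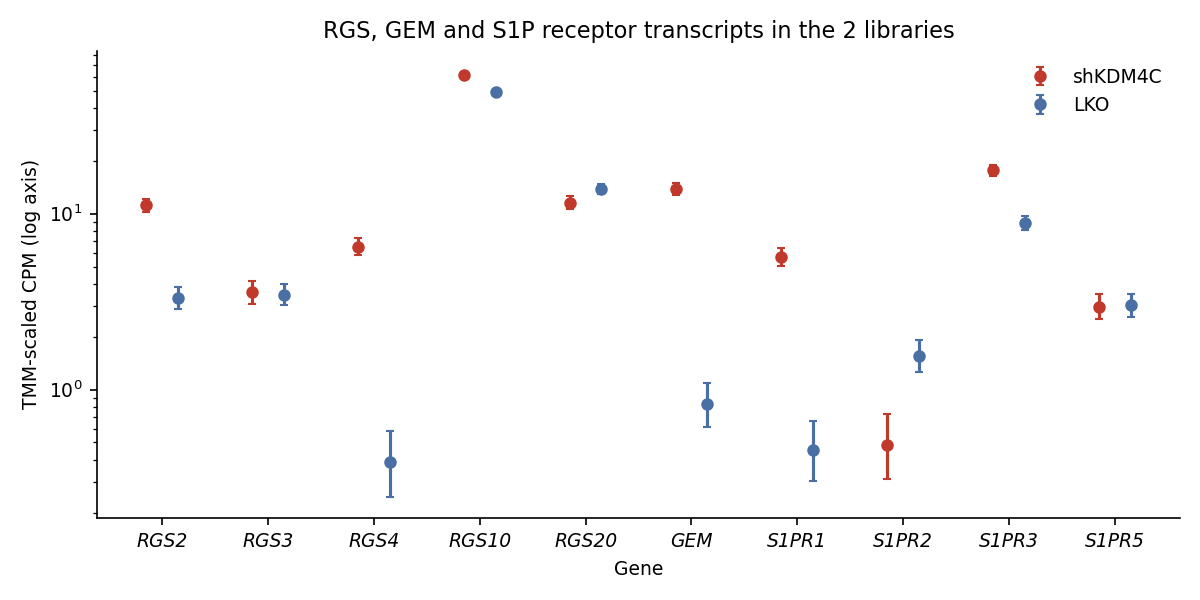
TMM-scaled CPM (counts per 1000000 of the scaled library, log axis) of each gene in the shKDM4C library (red, left) and the LKO library (blue, right), with exact 95% Poisson intervals as bars. GEM, RGS4 and S1PR1 lie between 5.68 and 13.8 CPM in shKDM4C and below 1 CPM in LKO, while the intervals of RGS3 and of S1PR5 overlap between the libraries.

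GEM showed the largest ratio of the 10. It had 682 counts in shKDM4C cells and 49 in LKO cells, or 13.8 counts per 1000000 (CPM) in shKDM4C against 0.828 CPM in LKO after scaling. GEM was thus 16.6-fold higher (95% counting interval 12.5 to 22.8), a log2 ratio of 4.05 that ranked 45 from the top of the 18078 tested genes. The gene, ENSG00000164949 in the table, lies on the minus strand of chromosome 8 at 94249253 to 94262350 of GRCh38. The other RGK genes with enough counts were also higher. RRAD, which like GEM binds calcium channel beta subunits, had 182 counts in shKDM4C and 43 in LKO (log2 ratio 2.33, interval 1.86 to 2.86). REM2 had 37 counts in shKDM4C and 24 in LKO (0.88, interval 0.11 to 1.69), and REM1 had 0 in both. All 3 tested RGK genes were therefore called higher, of which REM2 was not called with a 99% interval. Added up, the RGK genes had 901 counts in shKDM4C and 116 in LKO, and GEM made up 75.7% of them in shKDM4C (95% Wilson interval 72.8 to 78.4) and 42.2% in LKO (33.6 to 51.3).

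RGS4 and RGS2 had the largest ratios of the 13 tested genes in the R4, RZ, R7 and R12 subfamilies. RGS4, at 163068775 to 163076802 on the plus strand of chromosome 1, had 319 counts in shKDM4C cells and 23 in LKO cells, or 6.47 CPM in shKDM4C against 0.389 in LKO, and was 16.3-fold higher (interval 10.9 to 26.7; rank 48). RGS2, at 192809039 to 192812275 on the same strand, had 548 counts in shKDM4C and 197 in LKO, or 11.1 CPM in shKDM4C against 3.33 in LKO, and was 3.33-fold higher (interval 2.83 to 3.95; rank 545). RGS4 thus had few counts in LKO cells, whereas RGS2 was well covered in both libraries. RGS3, at 113444731 to 113597743 on the plus strand of chromosome 9, had 177 counts in shKDM4C and 205 in LKO (3.59 CPM in shKDM4C against 3.46 in LKO), with a log2 ratio of 0.053 and an interval of -0.25 to 0.35 that holds no change. These 3 genes belong to the R4 subfamily, small RGS proteins with little beyond the RGS domain apart from the longer RGS3. Of its other members, RGS16, which acts on Gi and Gq, had 82 counts in shKDM4C and 55 in LKO and was called higher (log2 ratio 0.84). RGS5, known from pericytes and smooth muscle, had 58 counts in shKDM4C and 97 in LKO (-0.47, interval -0.97 to 0.0060) and was called neither. RGS5 shares 8.06% of its exon bases with a long noncoding RNA on the same strand. RGS1 and RGS13 had 0 counts in both libraries, RGS8 had 0 in shKDM4C and 1 in LKO, RGS18 had 2 in shKDM4C and 1 in LKO, and RGS21 had 3 in shKDM4C and 1 in LKO. RGS2 lies beside RGS1, RGS13, RGS18 and RGS21 on chromosome 1, and of these 5 genes it was the 1 gene with more than 3 counts in either library. The R4 genes together had 1189 counts in shKDM4C and 580 in LKO, a log2 ratio of 1.30 (interval 1.16 to 1.45). RGS4 made up 26.8% of them in shKDM4C and 3.97% in LKO, RGS2 46.1% in shKDM4C and 34.0% in LKO, and RGS3 14.9% in shKDM4C and 35.3% in LKO. The most abundant R4 gene by counts was thus RGS2 in shKDM4C cells, while in LKO cells RGS3 and RGS2 had overlapping shares of counts, 31.6 to 39.3% and 30.2 to 37.9%. RGS3 has the longer exons, and per kb of merged exons RGS2 made up 67.5% of the R4 total in shKDM4C and 61.5% in LKO. By the same measure RGS3 made up 3.46% in shKDM4C and 10.2% in LKO. Per kb of canonical transcript, LKO cells had 2.47 CPM for RGS2 and 0.840 for RGS3.

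**Figure D2:**
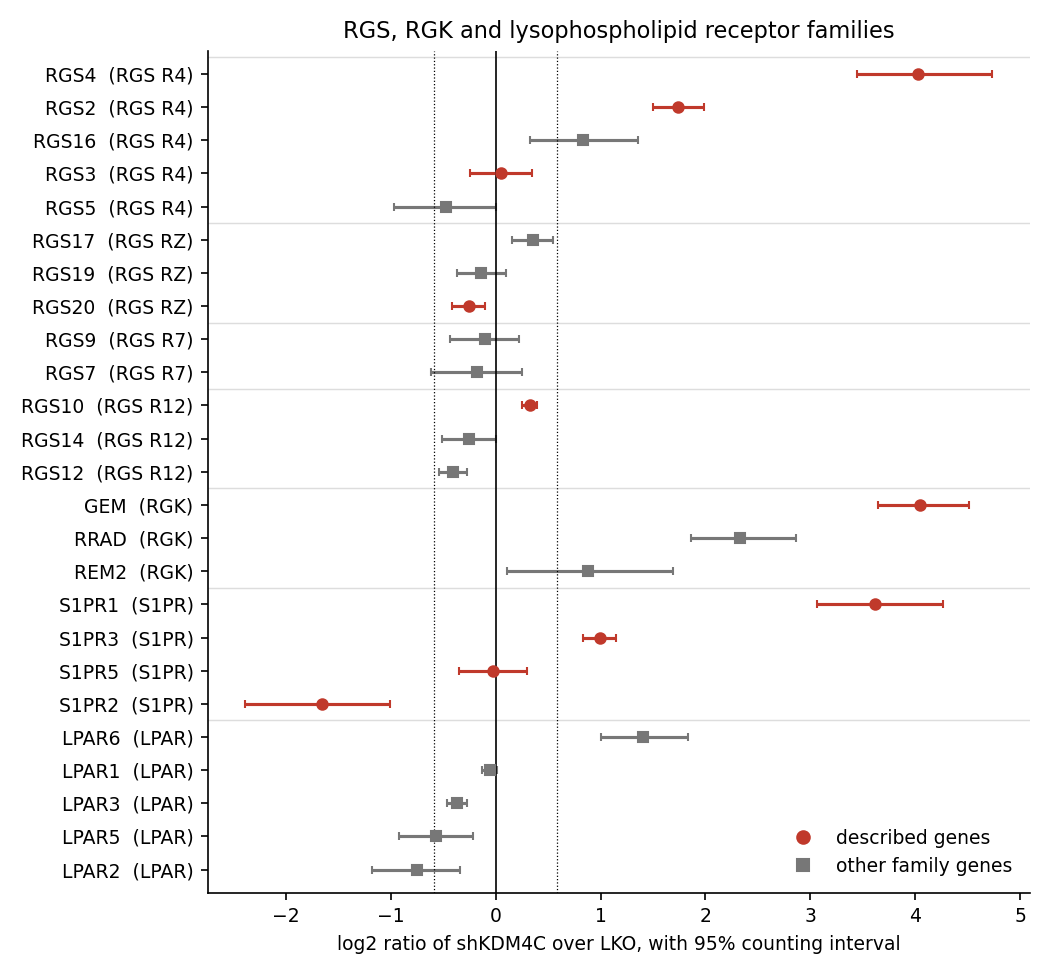
Log2 ratio of shKDM4C over LKO for every tested gene of the RGS subfamilies, the RGK GTPases and the S1P and LPA receptors, with exact 95% counting intervals as bars; the 10 described genes are red circles, other family genes are gray squares, and dotted lines mark 1.5-fold. GEM (4.05), RGS4 (4.03) and S1PR1 (3.61) lie far to the right, S1PR2 (-1.65) far to the left, and the points of the RZ, R7 and R12 genes stay between the dotted lines.

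No gene of the remaining RGS subfamilies was called. RGS10, the most abundant RGS transcript, lies on the minus strand of chromosome 10 at 119499817 to 119542719 and had 3032 counts in shKDM4C cells and 2913 in LKO cells, or 61.5 CPM in shKDM4C against 49.2 in LKO. This gave a log2 ratio of 0.32 (interval 0.25 to 0.40), which counting error alone does not cover but which stayed under 1.5-fold. RGS20 had 569 counts in shKDM4C and 818 in LKO, or 11.5 CPM in shKDM4C against 13.8 in LKO, a log2 ratio of -0.26 (interval -0.42 to -0.10). RGS20 spans 53851795 to 53959303 of chromosome 8, where a pair of genes on the opposite strand overlap its span without sharing exon bases. Of the relatives of RGS20 in the RZ subfamily, RGS17 had 447 counts in shKDM4C and 421 in LKO (0.35) and RGS19 had 271 in shKDM4C and 358 in LKO (-0.14). Of those of RGS10 in the R12 subfamily, RGS12 had 760 counts in shKDM4C and 1210 in LKO (-0.41) and RGS14 had 210 in shKDM4C and 301 in LKO (-0.25). In the R7 subfamily, whose proteins pair with the G beta subunit GNB5, RGS7 had 80 counts in shKDM4C and 109 in LKO (-0.18) and RGS9 had 140 in shKDM4C and 181 in LKO (-0.11), while RGS6 with 6 counts in shKDM4C and 0 in LKO and RGS11 with 6 in shKDM4C and 9 in LKO were not tested. RGS22, a larger RGS protein outside these subfamilies, had 37 counts in shKDM4C and 9 in LKO and was called higher (2.24, interval 1.23 to 3.54), above the ratio of RGS2 (1.74). Over the 13 tested genes of the 4 subfamilies, 3 were called higher and 0 lower, and the median ratio was -0.11 on the log2 scale. Of all tested genes, 13.0% were called higher and 15.7% lower. Summed over the 4 subfamilies, shKDM4C cells had 6710 counts and LKO cells 6900, a log2 ratio of 0.22 (interval 0.17 to 0.27), and RGS10 alone supplied 45.2% of the counts in shKDM4C and 42.2% in LKO.

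The S1P receptors differed in direction. S1PR1, at 101236865 to 101243713 on the plus strand of chromosome 1, had 280 counts in shKDM4C cells and 27 in LKO cells, or 5.68 CPM in shKDM4C against 0.456 in LKO, and was 12.2-fold higher (interval 8.38 to 19.2; rank 60). S1PR3, at 88990863 to 89005155 on the plus strand of chromosome 9, had 866 counts in shKDM4C and 523 in LKO, or 17.6 CPM in shKDM4C against 8.84 in LKO, and was 1.99-fold higher (interval 1.78 to 2.22). S1PR2, at 10221433 to 10231331 on the minus strand of chromosome 19, had 24 counts in shKDM4C and 92 in LKO, or 0.487 CPM in shKDM4C against 1.55 in LKO, and its level in shKDM4C was 31.8% of that in LKO (interval 19.1 to 49.5%). These ratios ran in opposite directions, and their counting intervals do not meet: 3.07 to 4.27 for S1PR1, 0.83 to 1.15 for S1PR3 and -2.39 to -1.01 for S1PR2, as log2 ratios. S1PR5, at 10512742 to 10517931 on the same strand, had 146 counts in shKDM4C and 179 in LKO (2.96 CPM in shKDM4C against 3.02 in LKO), with a log2 ratio of -0.029 and an interval of -0.36 to 0.29. S1PR4, a receptor known from leukocytes, had 0 counts in shKDM4C and 1 in LKO. The span of S1PR2 overlaps that of DNMT1 on the same strand, and the genes share 83 of the 3643 exon bases of S1PR2, or 2.28%. The canonical DNMT1 transcript starts downstream of S1PR2, so that the overlap comes from longer annotated transcripts. DNMT1, the maintenance DNA methyltransferase, had 9423 counts in shKDM4C and 18334 in LKO (log2 ratio -0.70, interval -0.73 to -0.66). The part of reads from such longer DNMT1 transcripts in the S1PR2 ratio was not tested.

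The make-up of the receptor pool differed as well. All S1P receptors together had 1316 counts in shKDM4C cells and 822 in LKO cells, a log2 ratio of 0.94 (interval 0.82 to 1.07). S1PR1 made up 21.3% of these counts in shKDM4C (95% Wilson interval 19.2 to 23.6) and 3.28% in LKO (2.27 to 4.74). S1PR2 made up 1.82% in shKDM4C (1.23 to 2.70) and 11.2% in LKO (9.21 to 13.5). S1PR3 was the largest contributor to both libraries, with 65.8% in shKDM4C (63.2 to 68.3) and 63.6% in LKO (60.3 to 66.8), and these intervals overlap. S1PR5 made up 11.1% in shKDM4C (9.51 to 12.9) and 21.8% in LKO (19.1 to 24.7). Longer transcripts give more counts, so shares of counts are not shares of molecules. Per kb of merged exons, S1PR1 made up 30.5% of the receptor total in shKDM4C and 3.89% in LKO, S1PR3 36.0% in shKDM4C and 28.7% in LKO, S1PR5 29.7% in shKDM4C and 48.0% in LKO, and S1PR2 3.75% in shKDM4C and 19.0% in LKO. These shares depend on the length used, since S1PR3 has 13702 merged exon bases and a canonical transcript of 4330. Per kb of canonical transcript, S1PR3 had 4.06 CPM in shKDM4C and 2.04 in LKO, and S1PR5 1.27 in shKDM4C and 1.29 in LKO. By that length S1PR3, not S1PR5, stood highest of the receptors in LKO.

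**Figure D3:**
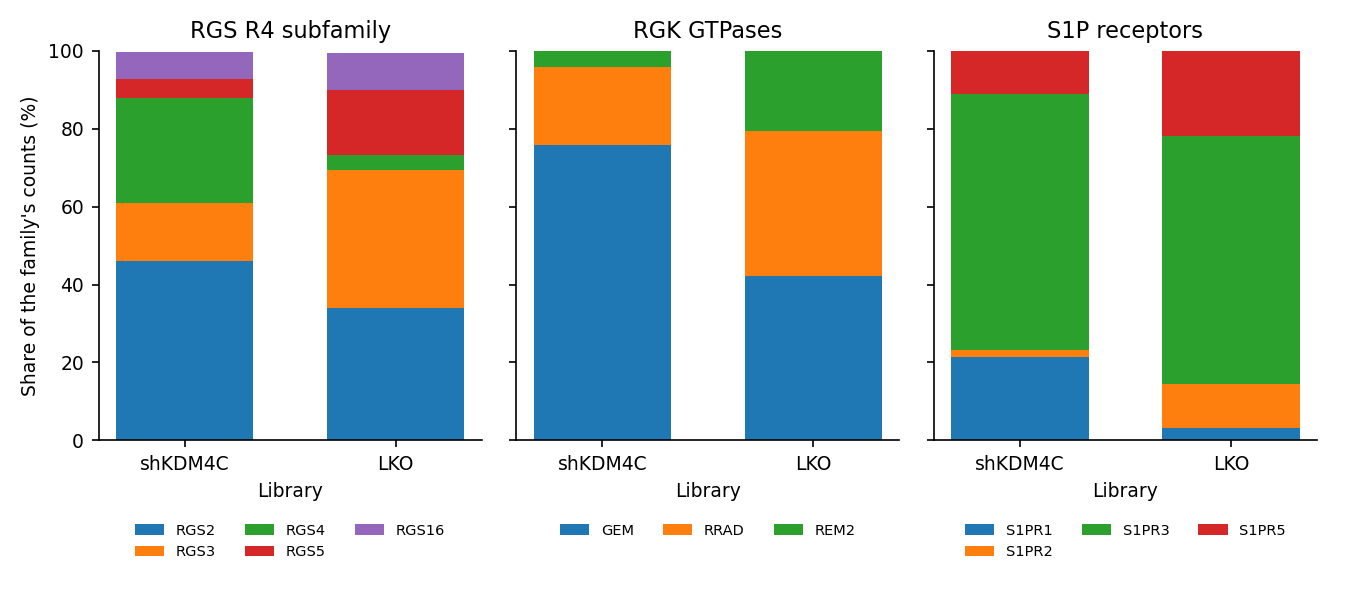
Share of the summed counts of the RGS R4 subfamily (left), the RGK GTPases (middle) and the S1P receptors (right) that each gene with at least 20 counts supplied, in shKDM4C (left bar) and LKO (right bar). RGS4 takes 26.8% of R4 counts in shKDM4C and 3.97% in LKO, GEM 75.7% of RGK counts in shKDM4C and 42.2% in LKO, and S1PR1 21.3% of receptor counts in shKDM4C and 3.28% in LKO.

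S1PR1 is a classical receptor of endothelial cells, so its level was set beside a list of endothelial markers. SAS cultures are squamous, and all 9 squamous markers were found in both libraries, of which 1 was called higher, 3 lower and 5 neither. KRT5 had 15935 counts in shKDM4C and 24147 in LKO (called neither). KRT6A was called higher with 622 counts in shKDM4C and 362 in LKO, and TP63, with 3598 in shKDM4C and 6955 in LKO, and ITGB4, with 4271 in shKDM4C and 9607 in LKO, were called lower. Of 6 endothelial markers, 4 had at least 20 counts, and 3 of these were called higher: CDH5 with 67 counts in shKDM4C and 16 in LKO, PECAM1 with 57 in shKDM4C and 22 in LKO, and VWF with 56 in shKDM4C and 39 in LKO. ESAM, by contrast, had 30 counts in shKDM4C and 49 in LKO, and the defining receptor genes KDR, with 2 counts in shKDM4C and 0 in LKO, and TEK, with 4 in shKDM4C and 3 in LKO, were near 0. The 6 markers summed to 4.38 CPM in shKDM4C and 2.18 CPM in LKO. Their part in the S1PR1 ratio was not tested. In bulk RNA, more cells expressing a gene and more of its RNA per cell cannot be told apart. Of 5 leukocyte markers, 2 were tested: PTPRC had 12 counts in shKDM4C and 14 in LKO (called neither), and CD14 had 16 in shKDM4C and 4 in LKO and was called higher (log2 ratio 2.14, interval 0.63 to 4.30). Of 6 fibroblast and pericyte markers, 4 had too few counts to be tested. Of the 2 tested, PDGFRB had 151 counts in shKDM4C and 168 in LKO (called neither). COL1A1 had 123 in shKDM4C and 97 in LKO (called higher).

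**Figure D4:**
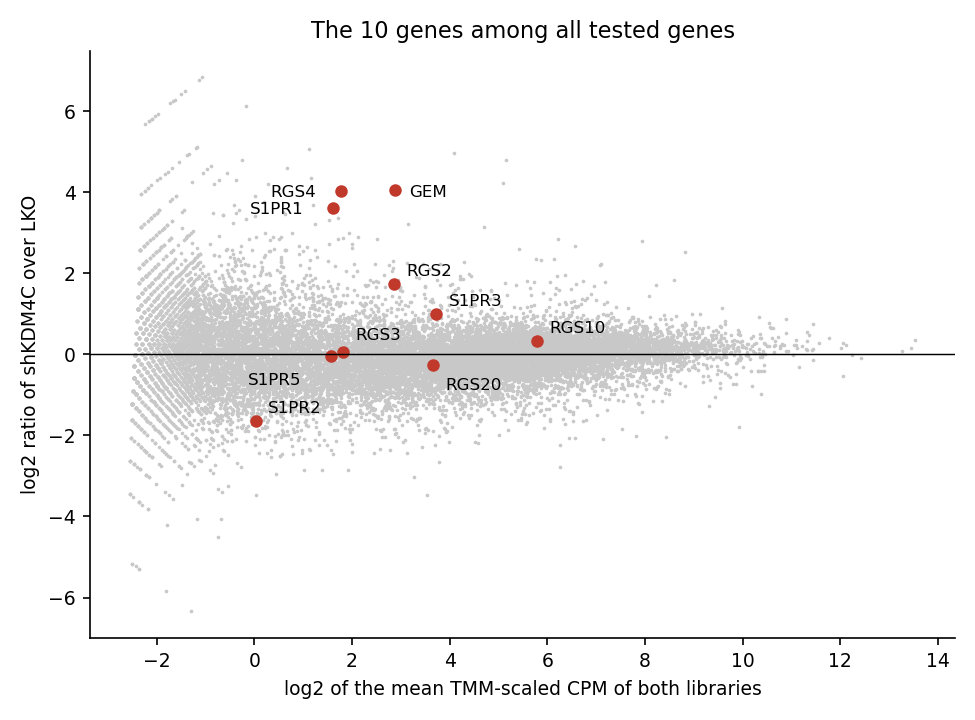
Log2 ratio of shKDM4C over LKO against the log2 of the mean TMM-scaled CPM of both libraries, for the 18078 tested genes (gray) and the 10 described genes (red). GEM, RGS4 and S1PR1 lie near the upper edge of the cloud at their abundance, S1PR2 in its lower part, and RGS3, S1PR5, RGS20 and RGS10 lie near 0.

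Levels were compared between the genes as CPM per kb of merged exons. In shKDM4C cells RGS10 came first at 48.3, followed by RGS2 at 5.32 and GEM at 5.23, whose counting intervals overlap, and RGS20 at 3.60. RGS4 at 1.37, S1PR3 at 1.28, S1PR1 at 1.09 and S1PR5 at 1.06 followed, each overlapping with the next, and RGS3 at 0.273 and S1PR2 at 0.134 came last. In LKO cells RGS10 was again first at 38.6, followed by RGS20 at 4.31, RGS2 at 1.59, S1PR5 at 1.08 and S1PR3 at 0.645. S1PR2 at 0.427, GEM at 0.313 and RGS3 at 0.263 came next, each overlapping with the next, and S1PR1 at 0.0873 and RGS4 at 0.0822, which overlap, were lowest. GEM thus held position 3 of 10 in shKDM4C and 7 in LKO, and S1PR2 position 10 in shKDM4C and 6 in LKO. With the length of the canonical transcript, an alternative chosen after seeing the data, RGS4 and S1PR3 changed places in shKDM4C, S1PR5 and S1PR3 changed places in LKO, and RGS3 moved up to position 6 in LKO. With that length 17 of 20 levels per kb moved outside their counting intervals, so the levels depend on the length chosen.

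For each of the 10 genes, the nearest tested gene on each side whose span does not overlap its own was taken. These were called higher in 4, lower in 3 and neither in 13 of 20 cases. Overlapping genes were left out: DNMT1 over S1PR2, called lower with the counts given above, and the opposite-strand pair over RGS20. Of that pair, a long noncoding RNA had 7 counts in shKDM4C and 21 in LKO and was called lower (log2 ratio -1.26). The other, a pseudogene, was called neither. Over all tested genes, the shares were 13.0% higher and 15.7% lower. Of the neighbors S1PR1-DT, a noncoding gene on the opposite strand 0.241 kb from S1PR1, had the highest ratio, with 24 counts in shKDM4C and 3 in LKO (log2 ratio 3.07, interval 1.54 to 5.64). RGS5 lies 34.3 kb from RGS4 and, as given above, was called neither. On the other side of RGS4, at 256 kb, the cholesterol synthesis gene HSD17B7 had 251 counts in shKDM4C and 1060 in LKO (-1.81, interval -2.02 to -1.61). Beside GEM, PDP1, which encodes a phosphatase of pyruvate dehydrogenase, was called lower with 9089 counts in shKDM4C and 19798 in LKO (-0.86), and the DNA repair gene RAD54B was called neither (0.20). Beside S1PR3, SHC3 at 0.616 kb had 142 counts in shKDM4C and 124 in LKO (0.46, called neither), and NXNL2 at 407 kb had 25 counts in shKDM4C and 15 in LKO and was called higher. Beside RGS2, UCHL5 had a log2 ratio of 0.25 (called neither), and PLA2G4A, 5820 kb away, had 17 counts in shKDM4C and 3 in LKO and was called higher. RGS3 lay between C9orf43, called higher with 165 counts in shKDM4C and 93 in LKO, and ZNF618, called lower with 145 in shKDM4C and 515 in LKO. The neighbors of RGS10 (GRK5 and TIAL1), RGS20 (ATP6V1H and TCEA1), S1PR2 (EIF3G and MRPL4) and S1PR5 (KEAP1 and ATG4D) and the pseudogene RPSAP19 beside S1PR1 were called neither.

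For each of the 10 genes called at 2-fold, the genes nearest to it in log2 ratio were listed, among those that averaged 100 or more counts a library. RGS4 and GEM were each other's nearest, 0.020 apart on the log2 scale, and the next for both was the cytokine gene IL24, with 3185 counts in shKDM4C and 205 in LKO (4.22). Nearest to RGS2 were DLG4, a postsynaptic scaffold gene with 518 counts in shKDM4C and 186 in LKO (1.74), and the noncoding LINC02709 with 250 in shKDM4C and 90 in LKO (1.73). Nearest to S1PR1 were a gene without a symbol with 210 counts in shKDM4C and 19 in LKO (3.70) and TRBC2, a T cell receptor constant segment, with 296 in shKDM4C and 34 in LKO (3.37). Nearest to S1PR2 were another gene without a symbol with 238 counts in shKDM4C and 898 in LKO (-1.65) and SNPH, a mitochondrial docking gene of neurons, with 44 in shKDM4C and 168 in LKO (-1.66). Likeness here rests on a single ratio per gene.

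Genes that make and break down the receptor ligand were measured beside the receptors. SPHK1, the sphingosine kinase found largely in the cytosol and at the plasma membrane, had 420 counts in shKDM4C cells and 159 in LKO cells (log2 ratio 1.66, interval 1.40 to 1.94). SPHK2, its relative found largely in the nucleus and mitochondria, had 206 counts in shKDM4C and 113 in LKO (1.13, interval 0.79 to 1.47). Both kinase genes were higher, but they overlap other genes on the opposite strand, SPHK1 over 1.34% of its exon bases with PRPSAP1 and SPHK2 over 11.0% with DBP and 11.3% with a noncoding RNA. SGPL1, the lyase that destroys S1P irreversibly, had 2970 counts in shKDM4C and 5350 in LKO and was called lower (-0.59, interval -0.65 to -0.52), just beyond 1.5-fold. Neither SGPL1 nor any other gene of this list was called lower with upper-quartile scaling, a prior count of 5, at least 200 counts or a 2-fold call. With RLE scaling 1 gene of the list was called lower, and with total counts 3 were. The S1P exporter SPNS2 had 37 counts in shKDM4C and 53 in LKO (-0.25) and the S1P phosphatase SGPP1 had 2074 in shKDM4C and 2674 in LKO (-0.10), both called neither. Of 18 tested genes of S1P synthesis, breakdown and export, 2 were called higher, 2 lower and 14 neither, and the list's median was 0.061 on the log2 scale. Over all tested genes, 13.0% were called higher and 15.7% lower.

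**Figure D5:**
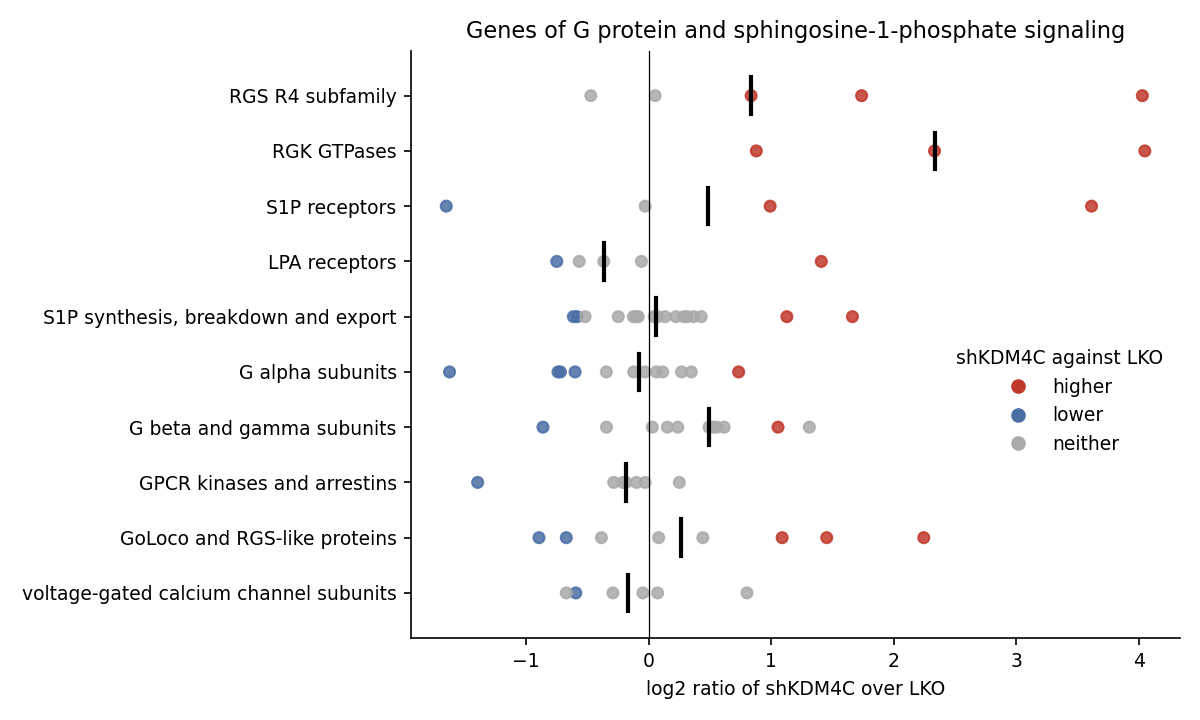
Log2 ratio of shKDM4C over LKO of each tested gene in 10 lists of G protein and S1P signaling, colored by call, with the median of each list as a black bar. The RGK list is the one with all 3 genes called higher, and of the lists drawn the LPA receptor list has the lowest median (-0.37).

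The G proteins on which the RGS proteins act were then examined. GNAQ, the Gq alpha subunit on which RGS2 and RGS4 act, had 3379 counts in shKDM4C cells and 6687 in LKO cells (log2 ratio -0.72, interval -0.78 to -0.66). GNA12, a G12/13 subunit downstream of S1PR2 and S1PR3, had 2483 counts in shKDM4C and 4523 in LKO (-0.60, interval -0.67 to -0.53), and GNAL, an olfactory Gs relative that shares 27.7% of its exon bases with MPPE1 on the opposite strand, was called higher with 183 counts in shKDM4C and 132 in LKO (0.73). GNAZ, the preferred substrate of RGS20, had 25 counts in shKDM4C and 94 in LKO and was called lower (-1.63, interval -2.35 to -0.998). GNAZ shares 7.45% of its exon bases with RSPH14 on the opposite strand, and it was named after its value was seen. The Gi subunits GNAI1, GNAI2 and GNAI3, through which all the S1P receptors signal, were called neither, with log2 ratios of 0.35, 0.062 and 0.27. GNA11 (-0.35) and GNA15 (-0.032), relatives of GNAQ, and GNA13 (-0.12), the relative of GNA12, were also called neither. Of 12 tested G alpha genes, 1 was called higher, 4 lower and 7 neither (median -0.078). Further downstream, PLCB3, a phospholipase C activated by Gq, was called lower with 1531 counts in shKDM4C and 3774 in LKO (-1.04). GRK6, a kinase that turns off activated receptors, had 973 counts in shKDM4C and 3077 in LKO (-1.40, interval -1.50 to -1.29) and was the 1 gene called of 7 receptor kinases and arrestins; it shares 9.16% of its exon bases with F12 on the opposite strand. Over all 89 tested genes of the lists, the 10 genes and the cell markers left out, 13 were called higher, 15 lower and 61 neither, with a median of -0.030. Beside these counts and those of the G alpha genes stand 13.0% called higher and 15.7% lower among all tested genes.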

How the data were processed

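Total RNA of 1 shKDM4C and 1 LKO culture was sequenced as paired-end reads from a poly(A), dUTP strand-marked library. The authors trimmed reads with Trimmomatic, aligned them to GRCh38 with HISAT2 and counted them per gene with featureCounts, and the deposited values used here are whole-number counts. The sources used here give no tool versions, annotation or strand setting of the counting, so overlapping genes are less certain. The deposited tables of the authors' own comparison (CPM, fold changes and p-values) and the remaining files were not used. No paired analysis was possible because there was 1 library per condition.

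Of 58884 gene IDs, 58472 were found in GENCODE v44, which gave symbols, positions and exon lengths. Effective library sizes came from edgeR 4.0.16 (TMM, R 4.3.3) over genes whose counts in the libraries sum to at least 20. They were 49292153 for shKDM4C and 59187275 for LKO. CPM values use these sizes. Log2 ratios, of shKDM4C over LKO, used a prior count of 0.5, and their 95% intervals are exact conditional binomial (Clopper-Pearson) intervals. Shares have Wilson intervals. No test between conditions was run and no p-value was computed. Calculations ran in Python 3.11.15 (scipy 1.17.1, pandas 2.3.3, numpy 2.4.6), and DESeq2 1.42.0 gave alternative size factors.

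The 10 genes, the lists and the motif words were chosen with earlier results of these data known. Named are the 10 genes, every other RGS, RGK, S1P receptor and LPA receptor gene with at least 20 counts, up to 2 genes per direction with a mean of at least 100 counts in each other list (ranked by the interval bound nearest 0), the nearest tested neighbors, the 2 genes nearest in ratio to each gene called at least 2-fold, and KDM4C. Genes named outside this rule, such as untested family genes, list genes given for their role and markers, were named after their values were seen. Some genes and lists that the rule covers are not reported here. Alternatives were total counts, RLE and upper-quartile scaling, filters of at least 1 and at least 200 counts, a prior count of 5, a 99% interval, no interval, a 2-fold call and the removal of overlapping genes.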

Additional observations from a re-analysis of the deposited data

How the results depend on the processing

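The ratios of the 10 genes depended little on the scaling, the count filter or the prior count. Of the 10 alternatives, those that changed only the interval or the fold limit cannot alter a log2 ratio and gave none. The others gave 67 log2 ratios, of which 66 moved by less than their counting interval, the exception being RGS10 with total counts (0.24). Without overlapping genes, the ratios of the genes that remained were identical to the main ones. These are counted among the 66 but test nothing. GEM stayed between 3.93 and 4.09, RGS4 between 3.80 and 4.07, S1PR1 between 3.42 and 3.65, RGS2 between 1.66 and 1.78, S1PR3 between 0.91 and 1.03 and S1PR2 between -1.73 and -1.48. RGS3 (-0.024 to 0.091) and S1PR5 (-0.11 to 0.0092) changed sign and were not called. The number of the 10 genes called lower was 0 with at least 200 counts, since S1PR2 has 116, and 0 without overlapping genes, since S1PR2 overlaps DNMT1. Over all tested genes, 2358 were higher and 2840 lower, but 2036 and 3347 with total counts, 1053 and 1664 with at least 200 counts, 1272 and 1632 without overlapping genes, and 1404 and 1348 at 2-fold. The median of all genes lay between -0.087 (total counts) and 0.059 (at least 1 count). Of the list counts, 44 of 340 moved by more than 1.5 times, and 14 of 119 list medians moved; the S1P receptor median was -0.060 with at least 1 count and the RGS family median 0.19 without overlapping genes. Low counts limit S1PR2 in shKDM4C (24) and RGS4 and S1PR1 in LKO (23 and 27).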

Other observations

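The receptors for lysophosphatidic acid (LPA), some of them the closest relatives of the S1P receptors, differed in direction as well. LPAR6, a receptor outside the S1P receptor branch whose span another gene overlaps, had 162 counts in shKDM4C cells and 73 in LKO cells and was called higher (log2 ratio 1.41, interval 1.01 to 1.83). LPAR2 had 73 counts in shKDM4C and 148 in LKO and was called lower (-0.75, interval -1.18 to -0.34). LPAR1 with 2848 counts in shKDM4C and 3564 in LKO (-0.060), LPAR3 with 1433 in shKDM4C and 2219 in LKO (-0.37) and LPAR5 with 106 in shKDM4C and 189 in LKO (-0.57) were called neither, and LPAR4 had 6 counts in shKDM4C and 0 in LKO. The median of the 5 tested LPA receptor genes was -0.37.

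Other proteins that bind G alpha subunits through a GoLoco motif or an RGS-like domain went both ways. GPSM3 had 787 counts in shKDM4C and 444 in LKO (1.09, interval 0.92 to 1.26), while its relatives GPSM1, with 87 counts in shKDM4C and 195 in LKO (-0.90), and GPSM2, with 1632 in shKDM4C and 3125 in LKO (-0.67), were called lower. GPSM2 shares 27.9% of its exon bases with CLCC1 on the opposite strand. Of 8 tested genes, 3 were called higher and 2 lower, beside 13.0% and 15.7% of all tested genes. Among 11 tested G beta and gamma genes, GNB3 was called higher with 144 counts in shKDM4C and 83 in LKO (1.06) and GNG4 lower with 474 in shKDM4C and 1036 in LKO (-0.86), and the median was 0.49, but 0.15 without overlapping genes and 0.26 with at least 200 counts. GNB3 shares 16.0% of its exon bases with CDCA3 on the opposite strand, and without overlapping genes 0 genes of this list were called higher. The calcium channel subunits, to whose beta subunits GEM binds, had few counts: 6 of 18 genes were tested, with 393 counts in shKDM4C and 495 in LKO over the whole list. CACNB1 had 128 counts in shKDM4C and 159 in LKO (-0.048), CACNB2 had 84 in shKDM4C and 96 in LKO (0.072), and CACNB3, with 56 counts in shKDM4C and 102 in LKO (-0.60), was the 1 gene called, as lower; no gene of the list was called lower with RLE or upper-quartile scaling, a prior count of 5, a 99% interval, at least 200 counts or a 2-fold call.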
